A study of Mus musculus with 10 samples.

Results

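The Hox cluster genes are the homeobox genes that lie side by side in the Hoxa, Hoxb, Hoxc and Hoxd clusters of the mouse genome. Every gene of the deposited count table whose symbol is Hox, a cluster letter and a number was taken, with the transcript that the authors marked as its representative. This gave 29 of 18594 genes. Coordinates are those of the deposited tables (mm9) and run over every gene of a cluster listed there. There were 9 Hoxa members on chromosome 6 and 10 Hoxb members on chromosome 11 (96055675 to 96229567). There were 5 Hoxc members on chromosome 15 (102751562 to 102867283) and 5 Hoxd members on chromosome 2 (74506367 to 74603199). A further 10 Hox genes (Hoxa11, Hoxa13, Hoxc10 to Hoxc13, Hoxd1 and Hoxd10 to Hoxd12) were listed only in the authors' FPKM table, at 0 in all 10 libraries.

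Hox proteins are homeodomain transcription factors that give cells their address along the head-to-tail axis of the embryo. Genes are numbered by their order in the cluster, low numbers being active towards the head and high numbers towards the tail, and genes of the same number in different clusters, called paralogues, are the closest relatives. In the gut they pattern both the mesoderm, which forms the mesenchyme and muscle, and the endoderm, which forms the epithelium, and adult cells keep part of that pattern. Polycomb proteins keep unused Hox genes silent, while trithorax proteins and retinoic acid keep them open or switch them on.

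RNA was sequenced from 10 libraries in 4 groups. The Foxl1 positive group held 3 libraries of sorted intestinal mesenchyme in which a Foxl1Cre driver had switched on a reporter, Rosa-YFP in replicates 1 and 2 and Rosa-mTmG in replicate 3. Foxl1, a forkhead factor, marks telocytes, thin long-armed cells that lie under the gut epithelium. The Foxl1 negative group held 3 libraries of the remaining mesenchyme, all from Foxl1Cre; Rosa-mTmG mice. Both groups were of mixed strain. The Lgr5 positive group held 2 libraries with the genotype spelled Lr5-EGFP-IRES CreERT2, of mixed strain, replicate 1 male and replicate 2 female; Lgr5 marks the stem cells at the crypt base. Differentiated epithelium held 2 libraries of wild type C57BL/6J mice. Genotype and group therefore cannot be told apart wherever mesenchyme is set against epithelium, nor between Lgr5 positive cells and differentiated epithelium. Strain and group cannot be told apart wherever differentiated epithelium is involved. No age or gut segment is given, and with Cre drivers the reporter also stays on in descendants of cells that once used the driver. All libraries carry the tissue label intestine mesenchyme.

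Depth differed between the groups: representative transcripts summed to between 4368332 and 11167676 counts per Foxl1 positive library and between 1311205 and 13440838 per Foxl1 negative library. Each Lgr5 positive library held 46415489 or 99628145 counts, each differentiated library 79516088 or 80910717. Foxl1 itself had 2, 276 and 55 counts in Foxl1 positive replicates 1, 2 and 3 and none in any Foxl1 negative library, while Lgr5 had 1074, 82 and 13 counts in the same 3 Foxl1 positive libraries. In these 2 genes the library labelled Foxl1 positive replicate 1 thus went against its label, at 0.155 CPM of Foxl1 and 83.3 CPM of Lgr5. The Lgr5 positive libraries had 269 and 375 CPM of Lgr5. Counts of called genes are also given without Foxl1 positive replicate 1. Summed over 13 epithelial markers, the Foxl1 positive libraries had 4057, 5258 and 251 CPM and the Foxl1 negative ones 7304, 14400 and 1674 CPM, against 13840 and 14580 CPM in Lgr5 positive cells and 55530 and 50460 CPM in differentiated epithelium. Over 14 mesenchymal markers the sums were 7253, 3653 and 74430 CPM in Foxl1 positive libraries and 6749 to 12650 CPM in Foxl1 negative libraries, against 8.19 to 14.8 CPM in the 4 epithelial libraries. Of these markers, 6 (Col3a1, Lum, Foxf1a, Foxf2, Twist2 and Zeb2) had no count in Lgr5 positive cells, and the part of cell mixture in the Hox values was not tested. Summed smooth muscle markers were 1336, 353 and 8203 CPM and summed immune markers 963, 901 and 102.5 CPM in Foxl1 positive replicates 1, 2 and 3. Per the labels, all Foxl1 negative libraries carry the same sequencing run identifier and every other library has its own, so run and group cannot be told apart.

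Pairs of paralogues that went different ways are shown first: Hoxc4 and Hoxd8 were at or near 0 in the epithelial libraries, whereas Hoxb4 and Hoxb8 were counted in Foxl1 positive and in Lgr5 positive cells. They are RefSeq promoters (GRCm38.p6, plus strand, 250 bases before to 50 after the start), with CG in capitals because unmethylated CpG islands cover much of the Hox clusters and recruit polycomb and trithorax proteins.
Hoxc4, chr15:103034145-103034444: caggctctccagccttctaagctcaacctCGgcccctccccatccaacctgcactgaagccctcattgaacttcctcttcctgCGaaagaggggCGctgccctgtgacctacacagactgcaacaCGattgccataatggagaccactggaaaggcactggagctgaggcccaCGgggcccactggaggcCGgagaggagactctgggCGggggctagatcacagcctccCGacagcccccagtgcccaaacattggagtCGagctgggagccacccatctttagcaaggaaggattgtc
Hoxd8, chr2:74704365-74704664: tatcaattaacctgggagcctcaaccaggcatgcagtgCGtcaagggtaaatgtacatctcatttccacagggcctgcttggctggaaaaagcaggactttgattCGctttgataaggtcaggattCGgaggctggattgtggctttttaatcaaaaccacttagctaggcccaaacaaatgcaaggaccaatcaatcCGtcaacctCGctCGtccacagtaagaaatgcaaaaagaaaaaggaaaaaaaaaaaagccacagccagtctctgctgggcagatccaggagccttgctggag
Hoxb4, chr11:96318017-96318316: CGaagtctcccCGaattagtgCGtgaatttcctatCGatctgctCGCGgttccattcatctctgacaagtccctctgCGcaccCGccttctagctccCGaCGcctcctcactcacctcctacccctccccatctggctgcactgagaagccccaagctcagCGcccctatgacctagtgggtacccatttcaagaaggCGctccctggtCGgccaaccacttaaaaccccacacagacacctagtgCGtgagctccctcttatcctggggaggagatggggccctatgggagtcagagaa
Hoxb8, chr11:96281655-96281954: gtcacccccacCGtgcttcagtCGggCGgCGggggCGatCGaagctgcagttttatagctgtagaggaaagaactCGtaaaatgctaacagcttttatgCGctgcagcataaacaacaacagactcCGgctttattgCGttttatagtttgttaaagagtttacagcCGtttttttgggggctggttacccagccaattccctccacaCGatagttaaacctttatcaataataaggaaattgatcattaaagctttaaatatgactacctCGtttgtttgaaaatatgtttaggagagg
The Hoxc4 promoter holds 9 CG and that of Hoxd8 6, against 14 for Hoxb4 and 13 for Hoxb8. These pairs were picked, a relation of CG number to expression was not tested, and other promoters ran both ways. Hoxd13 (37 CG) and Hoxd9 (20 CG) had no count in Lgr5 positive cells, whereas Hoxa5 (29 CG) and Hoxd4 (4 CG) were counted there. The table held 17 promoters of 16 members, with a median of 13 CG, against a median of 7 over all 32851 promoters. The motif TGATTNAT, which Hox proteins bind with a Pbx partner, was searched on both strands. It occurred in 5.88% of the Hox promoters (that of Hoxa2) and in 3.22% of all promoters.

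A microRNA encoded within the Hoxb cluster was also counted. Mir196a-1 had 0.322 and 0.272 CPM in Lgr5 positive cells and no count in the other 8 libraries. Mature miR-196a-5p (chr11:96265187-96265208, GRCm38.p6, plus strand) is shown with its seed, bases 2 to 8, in capitals, followed by its known site in the Hoxb8 3′ UTR (chr11:96284888-96284909, GRCm38, plus strand), where capitals mark the 21 of 22 bases that pair by Watson and Crick.
miR-196a-5p: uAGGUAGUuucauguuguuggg
Hoxb8 site: CCCAACAACATGAAACTgCCTA
An exact match to the seed occurred in the 3′ UTR of 9 of the 29 members. Hoxb8 was not among them, because the unpaired base lies within its seed match. Counts of a short precursor in a library of long RNA do not measure the mature microRNA.

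Hoxc genes were counted in Foxl1 positive cells and in neither epithelial group, which both held Hoxa and Hoxb genes at different levels. In Foxl1 negative mesenchyme only Hoxc4 was counted, in 1 library. Members with a count in at least 1 library numbered 24 for Foxl1 positive cells, 3 for Foxl1 negative cells, 19 for Lgr5 positive cells and 20 for differentiated epithelium. Members counted in every library of the group numbered 16, 0, 15 and 11, in the same order of groups. Summed over the members, levels were 196.2 ± 118.5 CPM in Foxl1 positive libraries and 57.8 ± 66.3 CPM in Foxl1 negative libraries (SD, n = 3 each). They were 64.6 ± 5.06 CPM in Lgr5 positive cells and 2.12 ± 0.943 CPM in differentiated epithelium (SD, n = 2 each). In a bulk library fewer cells of a type and less RNA per cell cannot be told apart. CPM are counts scaled by library size with 1 set of TMM factors for all libraries. A floor of 3 counts over the whole group was worth 0.113 CPM for the Foxl1 positive and 0.0976 CPM for the Foxl1 negative group. It was worth 0.0192 CPM for the Lgr5 positive group and 0.0389 CPM for the differentiated one, and it covers counting error only.

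**Figure D1:**
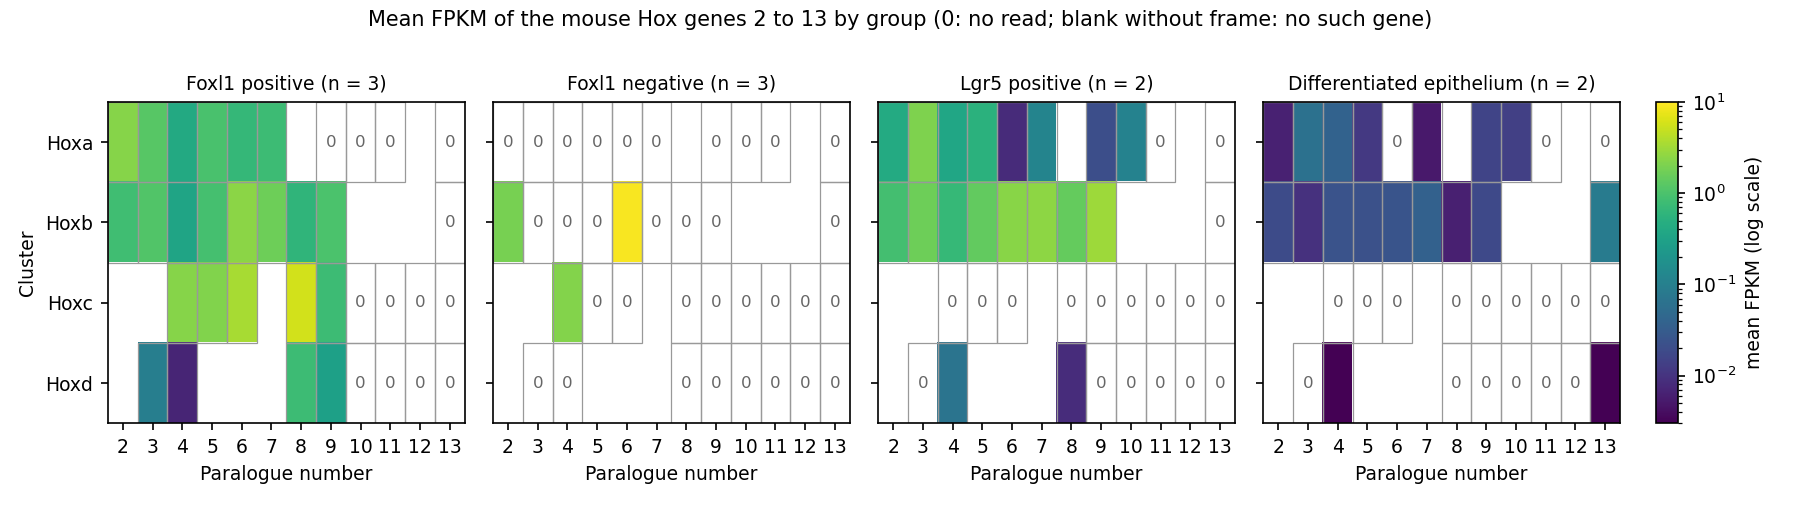
Mean FPKM (colour, log scale) of mouse Hox genes by cluster (rows) and paralogue number from 2 to 13 (columns) in the 4 groups, with n libraries as titled; a 0 marks genes listed at 0 in every library of the group, and places without a frame hold no gene. The Hoxc row is filled from Hoxc4 to Hoxc9 in Foxl1 positive cells and is at 0 in both epithelial groups, and most of the Hoxa and Hoxb places filled in Lgr5 positive cells are darker in differentiated epithelium, with Hoxb13 the other way round (0 FPKM in Lgr5 positive cells and 0.0883 FPKM in differentiated epithelium).

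FPKM values, which are per transcript length, allow genes to be set beside each other. In Foxl1 positive cells the highest means were Hoxc8 at 5.75, Hoxc6 at 3.46, Hoxb6 at 2.48, Hoxc4 at 2.30, Hoxa2 at 2.28 and Hoxc5 at 2.16 FPKM. In Lgr5 positive cells they were Hoxb9 at 3.06, Hoxb7 at 2.54, Hoxb6 at 2.36 and Hoxa3 at 2.10 FPKM, with every Hoxc gene at 0. Neighbours in these orders did not differ beyond their spread: Hoxc8 ranged from 0.965 to 12.05 FPKM and Hoxc6 from 0.0590 to 6.15 FPKM over the Foxl1 positive libraries. The order of the 29 members was similar in the Lgr5 positive libraries (Spearman's rho 0.916) and less so between pairs of Foxl1 positive libraries (0.373 to 0.530). These coefficients are descriptions across genes, partly set by members at 0.

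The Hoxc cluster gave 51.1%, 17.5% and 48.8% of the summed Hox FPKM in Foxl1 positive replicates 1, 2 and 3. The Hoxb cluster gave 88.0% and 68.2% in Lgr5 positive replicates 1 and 2, and 63.5% and 45.5% in differentiated epithelium replicates 1 and 2. Summed by paralogue number, the leading group differed between libraries. Group 8 led in Foxl1 positive replicate 1 at 14.05 FPKM, group 9 in replicate 2 at 2.77 FPKM and group 5 in replicate 3 at 9.84 FPKM. In Lgr5 positive cells group 9 led in replicate 1 at 4.01 FPKM and group 3 in replicate 2 at 4.86 FPKM. Members of paralogue groups 10 and 13 had no count in any Foxl1 positive library.

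**Figure D2:**
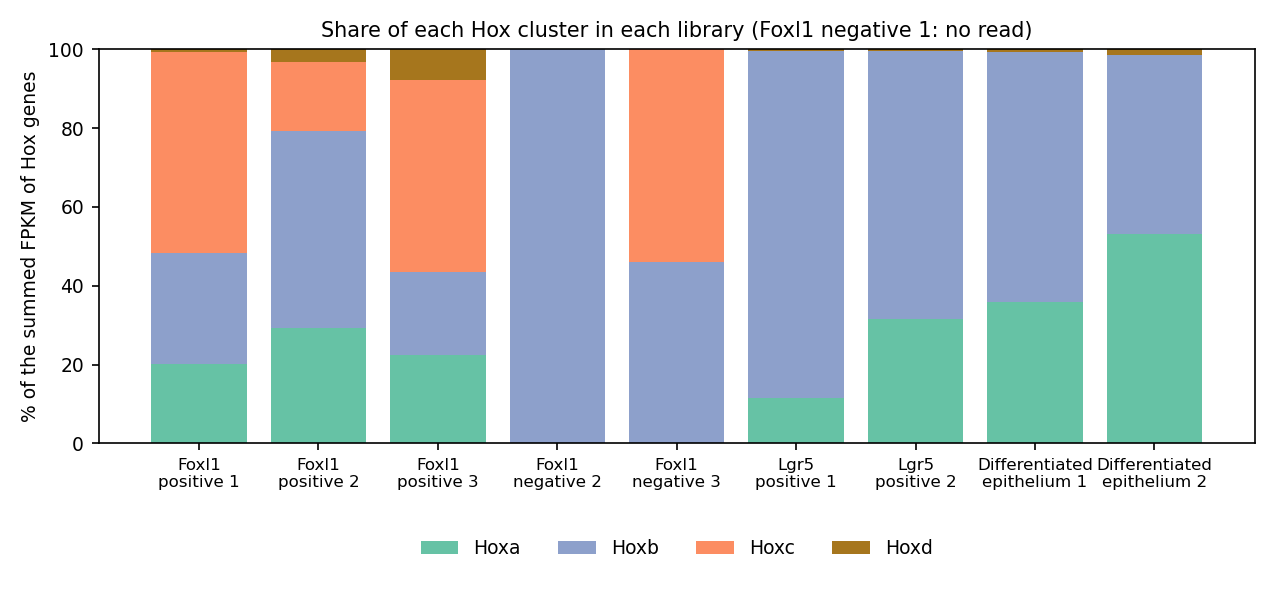
Share of each cluster in the summed FPKM of the 29 Hox genes (vertical axis, %), 1 bar per library; Foxl1 negative replicate 1 had no Hox read and no bar. Hoxc makes up 17.5% to 51.1% of the Foxl1 positive bars and none of the epithelial ones, where Hoxa and Hoxb fill nearly the whole bar.

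Foxl1 positive cells were set against Lgr5 positive cells to ask how the niche mesenchyme differs from the stem cells it adjoins. Hoxc counts lay on 1 side only: all 5 members together had 2828 counts over the Foxl1 positive libraries and 0 in the 2 Lgr5 positive libraries. Their summed levels were 174, 16.1 and 92.4 CPM in Foxl1 positive replicates 1, 2 and 3. The library that went against its label in Foxl1 and Lgr5 counts, replicate 1, was thus the highest. Of the 20 members that passed the filter on low counts, 1, Hoxc8, was called higher and none lower at an adjusted p under 0.05. The background was 4.84% of all genes called higher and 0.884% called lower, so the count of 1 was near it. At an unadjusted p under 0.05 edgeR had 7 members higher and none lower, and DESeq2 called 8 higher and none lower, against 19.3% and 5.14% of all genes. The members' median log2 fold change was 1.49, against 0.06 over all genes tested.

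Hoxc8, which sets the identity of thoracic vertebrae and of motor neurons at forelimb level, had 101, 8.19 and 23.6 CPM in Foxl1 positive replicates 1, 2 and 3, against 0 in both Lgr5 positive libraries. The groups did not overlap, and replicate 1 carried most of the mean. Hoxc8 was at least 2310-fold higher in Foxl1 positive cells with the Lgr5 positive group set to its floor, or 826-fold without the library labelled Foxl1 positive replicate 1 (edgeR quasi-likelihood test, Benjamini-Hochberg adjusted p = 0.0342). Without Foxl1 positive replicate 1 or 2 the call was lost (edgeR adjusted p = 0.0866 and 0.0828), and no gene at all was called in these fits. Without Lgr5 positive replicate 1 or 2, which leaves 1 library in that group, the calls over all genes were lost as well. The log2 fold changes of Hoxc8 were then 13.72 and 12.85. A fit of all 10 libraries, which shares 1 estimate of the spread, called no gene at all in this comparison.

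Hoxc6, a thoracic-level gene, had 34.8, 0.337 and 15.6 CPM in Foxl1 positive replicates 1, 2 and 3, against 0 in both Lgr5 positive libraries. Hoxc5, its neighbour, had 8.06, 0.337 and 36.0 CPM in Foxl1 positive libraries, against 0 in Lgr5 positive ones. Hoxc4, at the head end of the cluster, had 29.9, 1.35 and 11.6 CPM in Foxl1 positive libraries, against 0 in Lgr5 positive ones. In all 3 genes replicate 2 was by far the lowest Foxl1 positive library, yet the groups did not overlap. For Hoxc5 and Hoxc6 this separation rested on 3 counts each in replicate 2. Without overlap, 16.04% of all genes with a count lay higher in Foxl1 positive than in Lgr5 positive cells and 30.67% lower. Among the 26 Hox members with a count, 6 lay higher without overlap and 2 lower. Hoxc6, Hoxc5 and Hoxc4 did not pass the adjusted threshold in edgeR (adjusted p = 0.0721 for Hoxc6, 0.0792 for Hoxc5 and 0.0568 for Hoxc4). Hoxc9, which restrains limb-level motor neuron fates, had 0, 5.84 and 5.68 CPM in Foxl1 positive replicates 1, 2 and 3, against 0 in Lgr5 positive cells, so that replicate 1 overlapped with them (adjusted p = 0.133). Foxl1 positive replicates 2 and 3 each held all 5 Hoxc genes, at summed levels of 16.1 and 92.4 CPM.

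**Figure D3:**
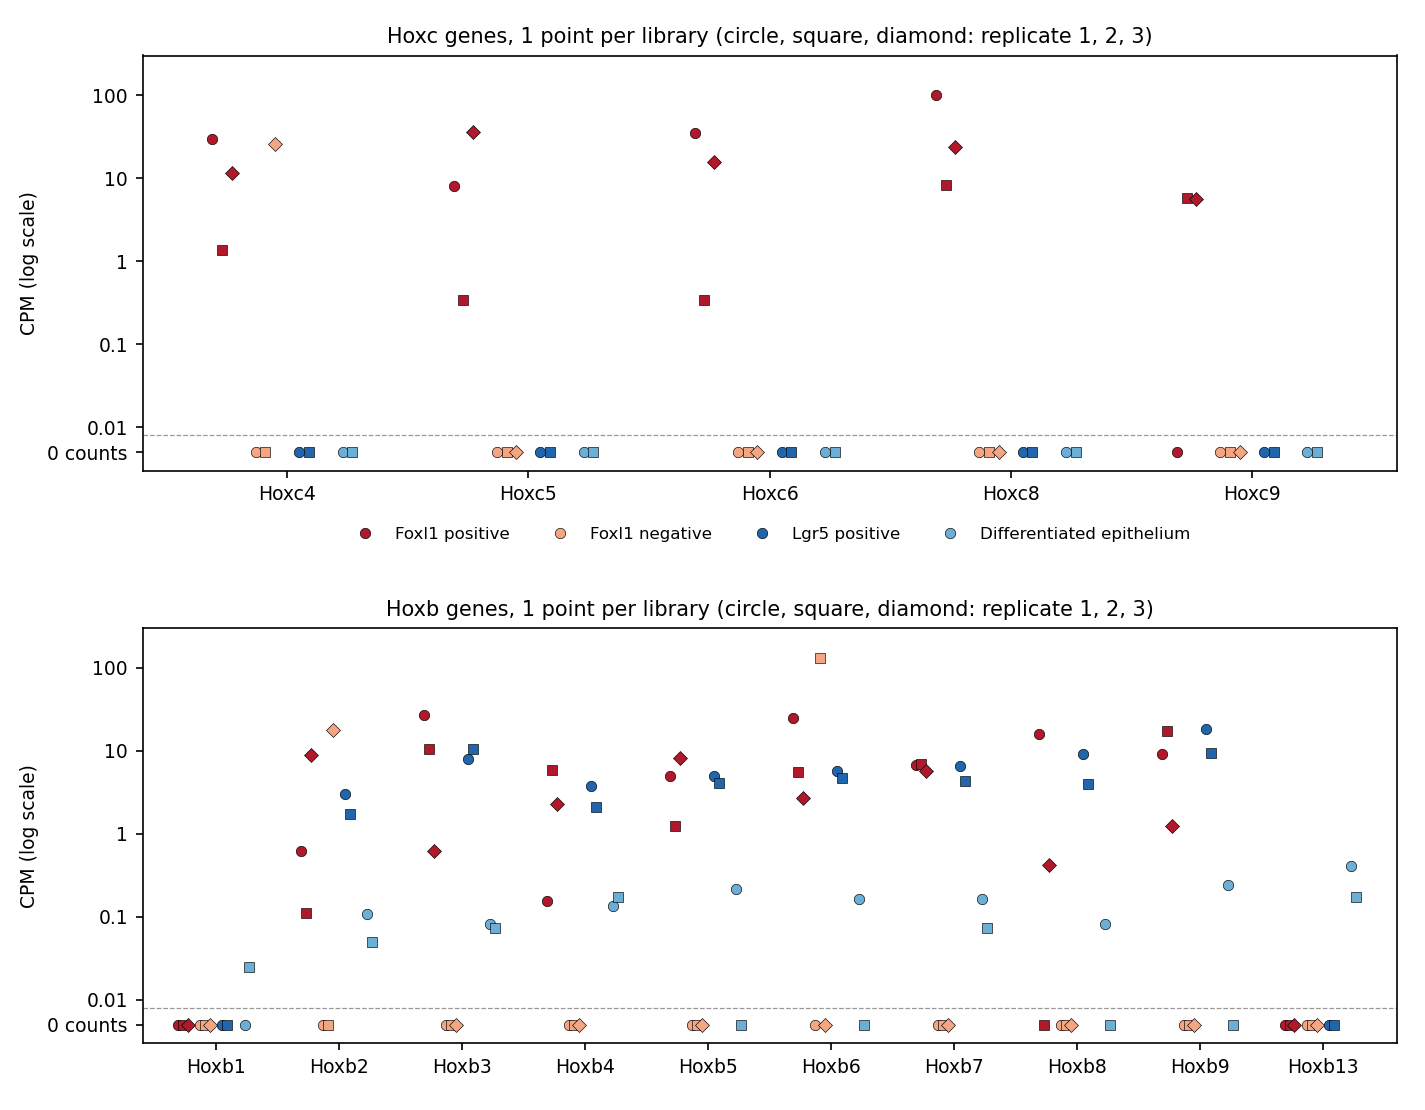
CPM (vertical axis, log scale, points with 0 counts below the broken line) of the Hoxc genes (top) and Hoxb genes (bottom), 1 point per library, with colours for the 4 groups and shapes for replicates. Hoxc points above 0 belong to Foxl1 positive libraries and, for Hoxc4, to Foxl1 negative replicate 3 at 25.5 CPM, whereas Hoxb2 to Hoxb9 have points above 0 in both Foxl1 positive and Lgr5 positive cells, more widely spread in the Foxl1 positive libraries for each gene but Hoxb7.

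All 8 genes from Hoxb2 to Hoxb9 were counted in both Foxl1 positive and Lgr5 positive cells, and none was called between them. Hoxb7 had 6.82, 6.96 and 5.68 CPM in Foxl1 positive libraries, against 6.53 and 4.29 CPM in Lgr5 positive ones, the narrowest spread of any Hoxb gene in Foxl1 positive cells. Hoxb9, which helps pattern the thoracic skeleton, had 9.31, 17.6 and 1.26 CPM in Foxl1 positive libraries, against 18.2 and 9.503 CPM in Lgr5 positive ones. Hoxb3 had 27.4, 10.6 and 0.631 CPM in Foxl1 positive libraries, against 7.999 and 10.6 CPM in Lgr5 positive ones. In each of these genes the groups overlapped. Others varied more: Hoxb8 had 16.2, 0 and 0.421 CPM in Foxl1 positive libraries, against 9.21 and 4.02 CPM in Lgr5 positive ones. Hoxb2 had 0.620, 0.112 and 9.05 CPM in Foxl1 positive libraries, against 3.04 and 1.73 CPM in Lgr5 positive ones. Both overlapped between the groups, with Foxl1 positive libraries on either side of the Lgr5 positive ones. The log2 fold changes were 0.48 ± 1.12 for Hoxb7, -0.30 ± 1.25 for Hoxb9 and 0.75 ± 1.45 for Hoxb3 (SE, edgeR, adjusted p = 0.826, 0.903 and 0.788). With standard errors above 1 on the log2 scale, equal levels were not shown.

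Of the Hoxa genes, Hoxa2, which gives the second pharyngeal arch its identity, had 20.5, 11.2 and 6.10 CPM in Foxl1 positive libraries, against 0.665 and 1.71 CPM in Lgr5 positive ones. Every Foxl1 positive library lay above both Lgr5 positive libraries, the log2 fold change was 3.66 ± 1.33, and the adjusted p was 0.138 (edgeR). Hoxa3, needed for thymus and parathyroid formation, had 14.2, 11.8 and 4.84 CPM in Foxl1 positive libraries, against 5.32 and 12.48 CPM in Lgr5 positive ones, and the groups overlapped. Reads of Hoxa3 may be shared with Hoxa4, Hoxa5 and Hoxa6, whose transcripts lie within its span. Hoxd8, a gene of the trunk, had 1.40, 2.02 and 5.68 CPM in Foxl1 positive libraries, against 0.0403 and 0 CPM in Lgr5 positive ones (log2 fold change 7.29 ± 2.37, adjusted p = 0.117, edgeR). Hoxa10 had no count in Foxl1 positive cells, against 0.282 and 0.667 CPM in Lgr5 positive cells.

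In Foxl1 positive cells against differentiated epithelium, 3 of 5 tested Hoxc genes, 2 of 6 tested Hoxa genes, 1 of 6 tested Hoxb genes and the 1 tested Hoxd gene were called higher. This comparison shares the Foxl1 positive libraries with the one above. Of the 18 members that passed the filter, 7 were called higher (Hoxa2, Hoxa3, Hoxb7, Hoxc4, Hoxc6, Hoxc8 and Hoxd8) and none lower. The background was 10.6% of all genes called higher and 7.19% called lower. At an unadjusted p under 0.05 edgeR had 15 members higher and none lower, and DESeq2 called 20 higher and none lower, against 24% and 13.8% of all genes. The members' median log2 fold change was 7.08, against 0.32 over all genes tested. Without the library labelled Foxl1 positive replicate 1 the count was 4, of which 3 were among these 7, and Hoxa2, Hoxa3, Hoxc4 and Hoxc6 lost their calls (adjusted p = 0.0501, 0.0639, 0.0606 and 0.0824). Without Foxl1 positive replicate 2 it was also 4, and Hoxb7, Hoxd8, Hoxa2 and Hoxa3 missed the threshold (adjusted p = 0.0516, 0.0552, 0.0509 and 0.0690). Without Foxl1 positive replicate 3 it was 11. With all 10 libraries in 1 fit it was 0, as was the count over all genes. Without either differentiated library, which leaves 1 in that group, the calls over all genes were lost as well.

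All 5 Hoxc genes had 0 counts in both differentiated libraries, as in Lgr5 positive cells. With the differentiated group set to its floor, Hoxc8 was at least 1141-fold, Hoxc6 at least 435-fold and Hoxc4 at least 367-fold higher in Foxl1 positive cells (edgeR adjusted p = 0.0240, 0.0475 and 0.0360). Without the library labelled Foxl1 positive replicate 1 these bounds were 408, 204.5 and 166. With 0 counts in the epithelium, Hoxc genes passed the filter only through the Foxl1 positive libraries in both comparisons. Against differentiated epithelium so did every other tested member, with at most 19 counts in any differentiated library. The count of 7 is therefore no support for a difference. Hoxc5 missed the threshold at an adjusted p of 0.0505. Hoxb7 had a 54.5 times higher mean in Foxl1 positive cells, with the CPM given above, against 0.164 and 0.0740 CPM in differentiated epithelium (adjusted p = 0.0400). Hoxa3 had a 26.0 times higher mean in Foxl1 positive cells, against 0.520 and 0.271 CPM in differentiated epithelium (adjusted p = 0.0490). Hoxa2 had 0.0547 and 0 CPM in differentiated epithelium, far under each Foxl1 positive library (adjusted p = 0.0299). Hoxd8 had no count there, which made it at least 78.0-fold higher in Foxl1 positive cells (adjusted p = 0.0413).

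On the authors' FPKM scale, which has no rescaling between libraries, the calls over all genes leaned the other way. Against Lgr5 positive cells edgeR called 690 genes higher and 126 lower in Foxl1 positive cells, and limma on log2(FPKM + 1) called 388 higher and 2806 lower, with medians of 0.06 and -1.02. Against differentiated epithelium the counts were 1467 higher and 998 lower with edgeR and 522 higher and 2329 lower with limma, with medians of 0.32 and -0.47. Of 12 members limma tested against Lgr5 positive cells it called 0, with 2 at an unadjusted p under 0.05, and the background was 3.02% higher and 21.9% lower. Of 9 tested against differentiated epithelium it called 1, higher, with a background of 4.24% higher and 18.9% lower. The median log2 difference of the members was -0.29 against Lgr5 positive cells, on a smaller set of members than edgeR tested, with the median over all genes at -1.02.

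Lgr5 positive cells were set against differentiated epithelium, stem cells against mature cells. Hox genes of the Hoxa and Hoxb clusters were far higher in the Lgr5 positive cells: of the 15 members that passed the filter, 14 were called higher and none lower. The background was 34.4% of all genes called higher and 31.9% called lower. All tested members but Hoxa3 passed the filter only through the Lgr5 positive libraries, with at most 9 counts in any differentiated library. The count of 14 is therefore no support for a difference. At an unadjusted p under 0.05 all 15 were higher. DESeq2 called 12 higher and 1 lower, Hoxb13, which the edgeR filter had left out, against 29.5% and 31.8% of all genes. With all 10 libraries in 1 fit, which made no call over all genes, 7 members were at an unadjusted p under 0.05. The members' median log2 fold change was 4.94, against 0.12 over all genes tested. TMM factors of the differentiated libraries were 0.460 and 0.501. On FPKM, without that rescaling, limma called all 7 members it tested higher, against 46% of all genes higher and 26.6% lower. These 7 reached the required mean of 1 FPKM in Lgr5 positive cells only.

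All 8 genes from Hoxb2 to Hoxb9 were called higher. Hoxb9 had 18.2 and 9.503 CPM in Lgr5 positive cells, against 0.246 and 0 CPM in differentiated epithelium. The difference was 113 times in the means (log2 fold change 6.85 ± 0.96 SE, edgeR adjusted p = 0.000400). Hoxb8, known in mice for myeloid cells and grooming behaviour, had 9.21 and 4.02 CPM in Lgr5 positive cells, against 0.0820 and 0 CPM in differentiated epithelium (adjusted p = 0.000300). Both genes stood far above the differentiated libraries in each Lgr5 positive replicate, and replicate 1 was above replicate 2.

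Hoxb3 had 7.999 and 10.6 CPM in Lgr5 positive cells, against 0.0820 and 0.0740 CPM in differentiated epithelium, a ratio of 119 (log2 fold change 6.86 ± 0.58, adjusted p = 3.66e-05). Hoxb6, a gene of lateral plate mesoderm in the embryo, had 5.72 and 4.71 CPM in Lgr5 positive cells, against 0.164 and 0 CPM in differentiated epithelium (adjusted p = 0.000740). Hoxb7 had 6.53 and 4.29 CPM in Lgr5 positive cells, against 0.164 and 0.0740 CPM in differentiated epithelium (adjusted p = 0.000183). In none of the 3 genes did the groups overlap. Such separation was common: of all genes with a count, 38.3% lay higher in Lgr5 positive cells without overlap and 37.1% lower.

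Hoxb5, active in the vagal neural crest that forms the enteric nervous system, had 5.04 and 4.06 CPM in Lgr5 positive cells, against 0.219 and 0 CPM in differentiated epithelium (adjusted p = 0.00163). Hoxb4, studied for its effect on blood stem cells, had 3.83 and 2.09 CPM in Lgr5 positive cells, against 0.137 and 0.173 CPM in differentiated epithelium (adjusted p = 0.000882). Hoxb2 had 3.04 and 1.73 CPM in Lgr5 positive cells, against 0.109 and 0.0493 CPM in differentiated epithelium (adjusted p = 0.000890). The ratio of means was 19.2 for Hoxb4 and 30.1 for Hoxb2. Hoxb13, a gene of the most posterior gut and the prostate, went against its cluster, with 0 counts in Lgr5 positive cells against 15 and 7 counts (0.410 and 0.173 CPM) in differentiated epithelium. It was not tested by edgeR and had an adjusted p of 0.00695 in DESeq2.

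**Figure D4:**
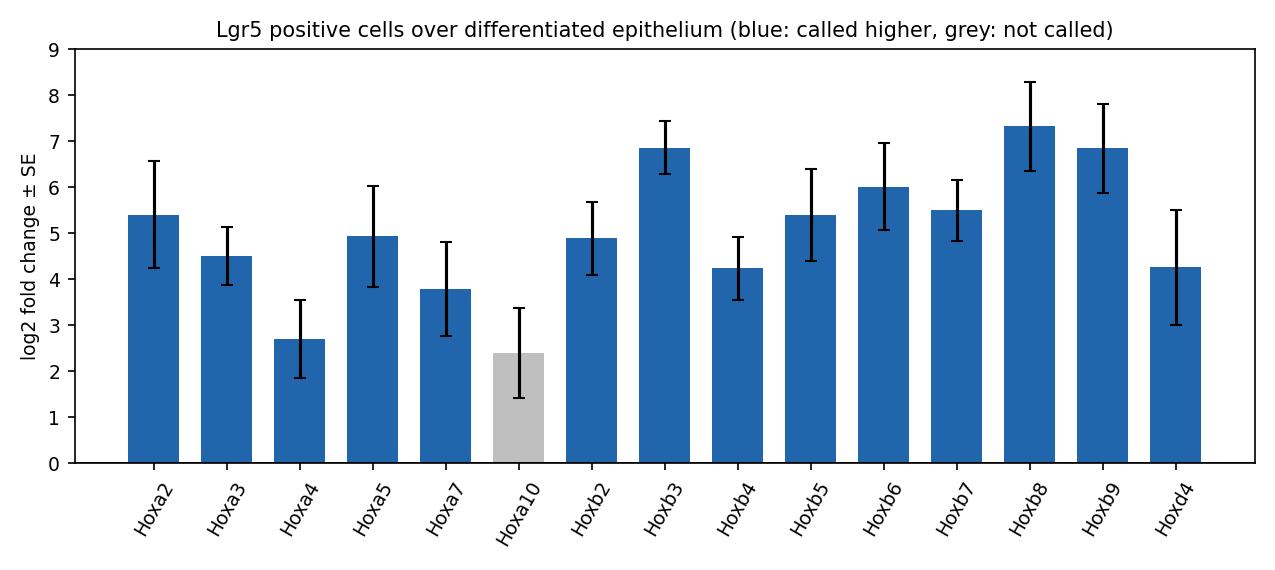
Log2 fold change of Lgr5 positive cells over differentiated epithelium (vertical axis) for the 15 Hox genes tested, with bars for the estimate and lines for ± 1 SE of the edgeR fit. All 15 are above 0, Hoxb8 is highest at 7.32, and Hoxa10, in grey at 2.40, is the gene not called.

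The Hoxa genes called higher were Hoxa2, Hoxa3, Hoxa4, Hoxa5 and Hoxa7. Hoxa3 had 5.32 and 12.48 CPM in Lgr5 positive cells, against 0.520 and 0.271 CPM in differentiated epithelium, a ratio of 22.5 (log2 fold change 4.50 ± 0.63, edgeR adjusted p = 0.000395). Hoxa5, needed for lung and gut maturation in mice, had 1.13 and 2.21 CPM in Lgr5 positive cells, against 0.109 and 0 CPM in differentiated epithelium (adjusted p = 0.00427). Hoxa2 had 0.665 and 1.71 CPM in Lgr5 positive cells, against 0.0547 and 0 CPM in differentiated epithelium (adjusted p = 0.00369). All 3 were higher in each Lgr5 positive library than in both differentiated ones.

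Hoxa4 had 0.524 and 1.35 CPM in Lgr5 positive cells, against 0.191 and 0.0986 CPM in differentiated epithelium, a ratio of 6.47 (adjusted p = 0.0208). Hoxa7 had 0.302 and 0.460 CPM in Lgr5 positive cells, against 0.0274 and 0.0247 CPM, 1 count each, in differentiated epithelium (adjusted p = 0.0106). Hoxa10 had 0.282 and 0.667 CPM in Lgr5 positive cells, against 0.0274 and 0.148 CPM in differentiated epithelium (log2 fold change 2.40 ± 0.98, adjusted p = 0.0589). These low genes were the least secure: Hoxa4 lost its call without Lgr5 positive replicate 2 (adjusted p = 0.0857), and Hoxa4, Hoxa7 and Hoxd4 lost theirs without either differentiated library (0.0934 to 0.270). Hoxd4 had 0.322 and 0.254 CPM in Lgr5 positive cells, against 0 and 0.0247 CPM in differentiated epithelium (adjusted p = 0.0156). Its transcript overlaps that of Hoxd3, which had no count in either group. Hoxa6, Hoxa9, Hoxb1, Hoxd8 and Hoxd13 were at or below 0.160 CPM in each library of both groups and were not tested.

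The clusters also differed between the Lgr5 positive replicates, which are of different sex per the labels. All 8 Hoxa members with at least 10 counts over both libraries were higher in replicate 2, by 1.52 to 2.58 times in the 6 members counted in both. In contrast 7 of 8 Hoxb members, all but Hoxb3, and also Hoxd4 were higher in replicate 1. Over all 15041 genes with as many counts, 57.2% were higher in replicate 2. With 1 library a side this is a description of these libraries with no test.

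**Figure D5:**
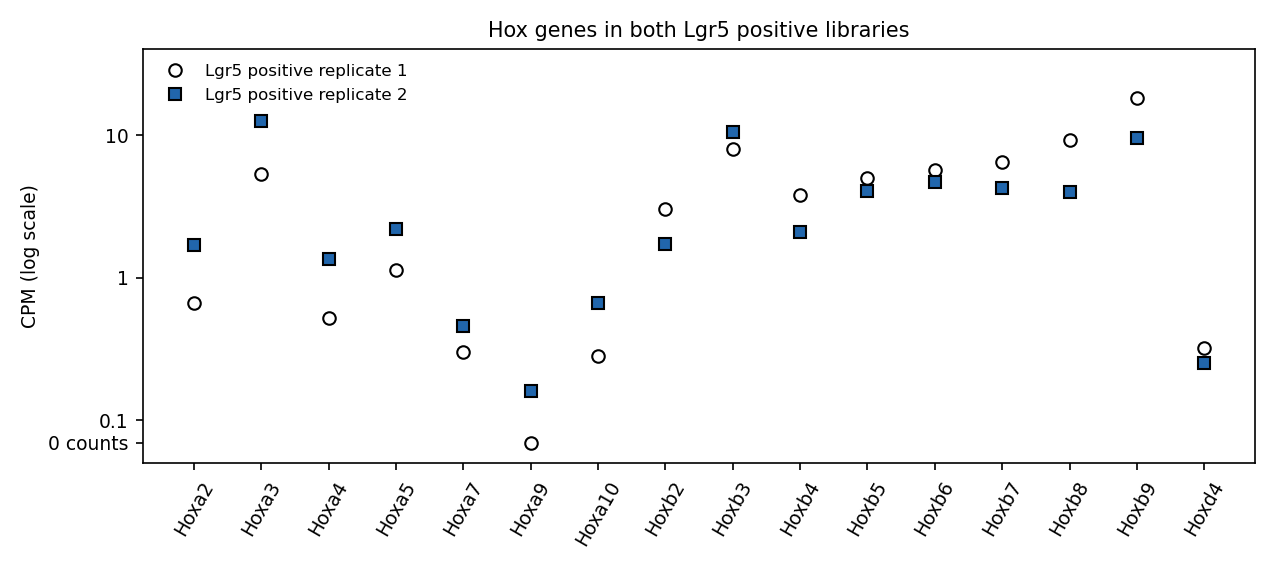
CPM (vertical axis, log scale) of 16 of the 17 Hox genes with at least 10 counts over the Lgr5 positive libraries, open circles for replicate 1 and filled squares for replicate 2. Squares lie above circles for each Hoxa gene shown, and circles above squares for Hoxb genes other than Hoxb3.

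Foxl1 positive and Foxl1 negative cells were compared to ask what sets telocytes apart from other mesenchyme. Few Hox genes had any count in Foxl1 negative cells: Hoxb6 had 978 counts (130.1 CPM) in replicate 2 only, and Hoxb2 and Hoxc4 had 384 and 550 counts (17.8 and 25.5 CPM) in replicate 3 only. Replicate 1 had no Hox count. Such values were common in these libraries. Of 9944 genes with a mean of 1 to 50 CPM in Foxl1 positive cells, 91.0%, 79.5% and 68.0% were at 0 in Foxl1 negative replicates 1, 2 and 3, as were 22, 21 and 20 of the 22 Hox members in that range.

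Of the 8 members that passed the filter, 6 were called higher in Foxl1 positive cells (Hoxa2, Hoxa3, Hoxb5, Hoxb7, Hoxc8 and Hoxd8) and none lower. The background was 42.2% of all 11204 genes called higher and 0% called lower. DESeq2 called 16 of 20 members higher and none lower, against 53.7% of all genes higher and 0.604% lower. On log2(FPKM + 1) limma called 3 of 10 higher and none lower, against 24.4% and 0.0926% of all genes. Each called member had 0 counts in every Foxl1 negative library and so passed the filter only through the Foxl1 positive libraries, and the count of 6 is no support for a difference. The fold of each is a bound set by the floor, which assumes that these libraries share 1 level. Hoxc8 was at least 455-fold higher in Foxl1 positive cells (163 without the library labelled replicate 1), Hoxa2 at least 129-fold, Hoxa3 at least 105-fold, Hoxb7 at least 66.5-fold, Hoxb5 at least 49.2-fold and Hoxd8 at least 31.1-fold (edgeR adjusted p = 0.0151 for Hoxc8 and 0.0116 for the others). Hoxb6 and Hoxc4, with 1 high Foxl1 negative library each, were not called (log2 fold change -1.13 ± 2.69 and 1.18 ± 2.32, adjusted p = 0.875 and 0.839).

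Without the library labelled Foxl1 positive replicate 1 the count of called members was 8, of which 5 were among these 6, and without Foxl1 negative replicates 2 or 3 it was 11. With the Rosa-mTmG libraries alone, where Foxl1 positive replicate 3 stands against 3 Foxl1 negative libraries, it was 0, as was the count over all genes. Summed red cell and hepatocyte markers were 12.4 to 30.7 CPM in Foxl1 positive libraries, against 64620 CPM in Foxl1 negative replicate 1, and their part in the Hox values was not tested.

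Of the other Hoxd members, Hoxd3 had 0.155, 0 and 1.89 CPM and Hoxd9 0, 0 and 4.42 CPM in Foxl1 positive replicates 1, 2 and 3, with no count in the other groups. Hoxd13, a gene of digits and the hindgut outlet, had 1 count in differentiated epithelium replicate 1, and Hoxb1 had 1 count in replicate 2. Hoxa9 had 0 and 0.160 CPM in Lgr5 positive cells against 0.0547 and 0.123 CPM in differentiated epithelium. Hoxa6 had 4.58, 0 and 0.210 CPM in Foxl1 positive replicates 1, 2 and 3, with replicate 1 far above the others.

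Hox proteins bind DNA with TALE homeodomain cofactors of the Pbx, Meis and Pknox families. In Lgr5 positive cells against differentiated epithelium 2 of 7 tested TALE genes were called higher and 2 lower (34.4% and 31.9% of all genes). Their median log2 fold change was 0.22, against 0.12 over all genes. Pbx2 had 70.2 and 58.5 CPM in Lgr5 positive cells, against 62.5 and 48.7 CPM in differentiated epithelium, and was not called (adjusted p = 0.535). Of all genes, 4.84% were called higher in Foxl1 positive cells than in Lgr5 positive cells and 10.6% higher than in differentiated epithelium. Foxl1 positive cells had 2 of 8 TALE genes called higher than in Lgr5 positive cells and 3 of 9 called higher than in differentiated epithelium, none lower. Pknox2 was one of them, with 39.6, 18.6 and 46.7 CPM in Foxl1 positive cells, against 0 and 0.0939 CPM in Lgr5 positive cells (adjusted p = 0.0334). The other against Lgr5 positive cells was Meis1, named after its values were seen, with 6.59, 23.9 and 91.95 CPM in Foxl1 positive libraries and 0 counts in all 4 epithelial ones (adjusted p = 0.0338). Against Foxl1 negative cells 5 of 8 TALE genes were called higher and none lower, with 42.2% and 0% of all genes so called, and Pknox1 was among those not called (adjusted p = 0.339).

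The ParaHox gene Cdx2, which drives intestinal epithelial identity and activates posterior Hox genes in the embryo, had 9.15, 12.4 and 2.95 CPM in Foxl1 positive libraries, against 326 and 219.8 CPM in Lgr5 positive ones and 430.2 and 288 CPM in differentiated epithelium. It was called lower in Foxl1 positive cells against both (edgeR adjusted p = 0.0276 and 0.0186), the 1 call of 3 ParaHox genes tested in each. Of all genes, 0.884% and 7.19% were called lower. Between Lgr5 positive cells and differentiated epithelium Cdx2 was not called (adjusted p = 0.324), and Pdx1, a gene of the duodenum and pancreas, was lower in Lgr5 positive cells at 2.72 and 2.68 CPM, against 29.8 and 30.5 CPM (adjusted p = 8.57e-05). Against Foxl1 negative cells both ParaHox genes tested, Cdx1 and Cdx2, were called higher, as were 42.2% of all genes.

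Of 26 polycomb genes tested between Lgr5 positive cells and differentiated epithelium, 15 were called higher and 5 lower (34.4% and 31.9% of all genes). Their median log2 fold change was 1.495, against 0.12 over all genes. Rbbp7, a histone-binding subunit, had 530 and 475 CPM in Lgr5 positive cells, against 33.7 and 40.7 CPM in differentiated epithelium (adjusted p = 3.42e-05), and Suz12 had 259 and 313 CPM against 51.8 and 91.8 CPM (adjusted p = 0.00140). In Foxl1 positive cells polycomb genes called were 9 of 23 higher against Foxl1 negative cells (42.2% of all genes), 0 of 26 against Lgr5 positive cells and 1 higher and 1 lower of 26 against differentiated epithelium. Of all genes, 4.84% and 0.884% were called higher and lower against Lgr5 positive cells, and 10.6% and 7.19% against differentiated epithelium. Against Lgr5 positive cells edgeR had 2 polycomb genes higher and 6 lower at an unadjusted p under 0.05, and DESeq2 called 2 higher and 1 lower. Of 11 trithorax and demethylase genes, 3 were called higher and 1 lower in Lgr5 positive cells against differentiated epithelium (34.4% and 31.9% of all genes). In Foxl1 positive cells 3 were called higher against Foxl1 negative cells (42.2% of all genes), 0 against Lgr5 positive cells and 1 higher against differentiated epithelium. Against Lgr5 positive cells edgeR had 1 higher and 2 lower at an unadjusted p under 0.05, and DESeq2 called 1 higher and 1 lower.

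Of the enzymes that make retinoic acid, Aldh1a2 and Aldh1a3 were called higher in Foxl1 positive cells against each other group. Aldh1a2 had 118, 103 and 415 CPM in Foxl1 positive libraries, against 0 in both Lgr5 positive libraries (adjusted p = 0.0164) and 0.0547 and 0.0493 CPM in differentiated epithelium (adjusted p = 0.0122). Aldh1a3 had 147, 105 and 506 CPM in Foxl1 positive libraries, against 0.202 and 0.686 CPM in Lgr5 positive ones (adjusted p = 0.0198) and 0.0274 and 0.247 CPM in differentiated epithelium (adjusted p = 0.0155). Both had no count in Foxl1 negative libraries. Aldh1a1 had 189, 358 and 604 CPM in Foxl1 positive libraries, against 15.2 and 17.2 CPM in Lgr5 positive ones (adjusted p = 0.0276). It was not called against differentiated epithelium, at 971 and 1229 CPM (adjusted p = 0.212), or against Foxl1 negative cells, at 275, 476 and 146 CPM (adjusted p = 0.744). Of 12 retinoic acid genes tested, 3 were called higher and none lower in Foxl1 positive cells against each epithelial group. Of all genes, 4.84% were called higher against Lgr5 positive cells and 10.6% against differentiated epithelium. Against Foxl1 negative cells 4 of 10 were called higher, where 42.2% of all genes were. In Lgr5 positive cells against differentiated epithelium 1 of 10 was called higher and 5 lower (34.4% and 31.9% of all genes).

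Of 25 listed noncoding transcripts of the clusters, 6 were in the count table and 3 passed the filter between Lgr5 positive cells and differentiated epithelium. All 3 tested, Mira, Gm53 and Mir196a-1, were called higher in Lgr5 positive cells than in differentiated epithelium (edgeR adjusted p = 0.0118, 0.0054 and 0.0078), as were 34.4% of all genes. They passed the filter only through the Lgr5 positive libraries, with at most 0.191 CPM in any differentiated library. The count of 3 is therefore no support for a difference. On the log2 scale the medians were 4.78 for the list and 0.12 for all genes. In Foxl1 positive cells edgeR called 0 of 2 against Lgr5 positive cells, with 0 at an unadjusted p under 0.05 and 0 by DESeq2. Against differentiated epithelium it called 0 of 1, with 1 higher at an unadjusted p under 0.05 and 1 by DESeq2, and none was tested against Foxl1 negative cells. The untested 2700086A05Rik had 0.0202 and 0.601 CPM in Lgr5 positive cells, against 0.246 and 0.0740 CPM in differentiated epithelium. Mira, transcribed within the Hoxa cluster, had 0.584 and 2.40 CPM in Lgr5 positive cells, against 0.191 and 0.0493 CPM in differentiated epithelium. Genes that flank the clusters were called in both directions in the epithelium. Of 12 tested between Lgr5 positive cells and differentiated epithelium, 3 were called higher and 4 lower (34.4% and 31.9% of all genes). Tax1bp1, beside the Hoxa cluster, had 516 and 577 CPM in Lgr5 positive cells, against 932 and 1267 CPM in differentiated epithelium (edgeR adjusted p = 0.0161). In Foxl1 positive cells 6 of 11 were called higher against Foxl1 negative cells (42.2% of all genes). Against Lgr5 positive cells 1 of 11 was (4.84% of all genes), Skap1, a gene named after its values were seen. Against differentiated epithelium edgeR called 0 of 11, with 0 at an unadjusted p under 0.05 and 0 by DESeq2.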

How the data were processed

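Both deposited tables were used. The authors' counts are raw whole numbers, as deposited, for 24082 transcripts (18594 genes). The authors' FPKM values, scaled by them for transcript length and library size, cover 29510 transcripts. The submitters' processing notes name build mm9 and the tools CASAVA 1.8.2 and edgeR. No source used here gives the aligner, the counter, the annotation or the use of strand, so reads of a Hox gene and of an antisense transcript cannot be told apart. Of the members, 6 overlap another Hox transcript and 2 have several transcripts. Cells were dissociated with Dispase II and trypsin and sorted, and RNA was purified on columns, per the labels.

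Counts of 1 representative transcript per gene went into the robust, 2-sided quasi-likelihood test of edgeR 4.0.16 (R 4.3.3), after filterByExpr and TMM scaling, with Benjamini-Hochberg adjustment over all genes tested and a threshold of 0.05. Each comparison was fitted with its 2 groups alone. That choice was made with earlier results of these data known, which included that fits of all 10 libraries made no call in 3 of the 4 comparisons. The Hox members and the other gene lists were also chosen with earlier results known. SE was derived from the fold change and the F statistic. Alternatives were other size factors, no filter, DESeq2 1.42.0, all libraries in 1 fit, another transcript, limma 3.58.1 on log2(FPKM + 1) and log2(FPKM + 0.1) with a mean of at least 1 FPKM in 1 group, a replicate block and each library left out. Such differences on the FPKM scale understate changes of low genes. Expression values were given for the members with the highest FPKM, members whose calls differed and members counted in epithelium, and for up to 4 of the highest genes of each other list. The scripts were tested on simulated data; with spread drawn as in these libraries, most genes given a large change were missed in the comparisons with Foxl1 positive cells, so a gene not called there is not shown to be unchanged. No source says that replicates came from separate animals, so the p-values reflect library-to-library spread alone, possibly technical. Checked by a chi-square test, replicates differed by more than sampling noise. Sequences come from RefSeq and GENCODE for GRCm38, matched by symbol, and no coordinate was converted. A promoter shown may therefore belong to another transcript than the one counted. Values of 1 member and of 1 cofactor gene are not reported here.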

Additional observations from a re-analysis of the deposited data

How the results depend on the processing

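The counts of called Hox genes were 6 (Foxl1 positive against Foxl1 negative cells), 1 (against Lgr5 positive cells), 7 (against differentiated epithelium) and 14 (Lgr5 positive cells against differentiated epithelium), given in this order throughout. With all 10 libraries in 1 fit they were 14, 0, 0 and 0, with 7, 14 and 7 members at an unadjusted p under 0.05 in the last 3. DESeq2 gave 16, 8, 20 and 13. Without a filter on low counts they were 11, 1, 3 and 15. Limma gave 3, 0, 1 and 7 on log2(FPKM + 1), with 2 members at an unadjusted p under 0.05 in the second, and 4, 1, 3 and 7 on log2(FPKM + 0.1). Median-of-ratios size factors and the transcript with the highest count left each count as it was. Leaving out 1 library gave ranges of 7 to 11, 0 to 3, 0 to 11 and 11 to 16. The counts without Foxl1 positive replicate 1, 2 or 3 were 8, 10 and 7 against Foxl1 negative cells, 0, 0 and 3 against Lgr5 positive cells and 4, 4 and 11 against differentiated epithelium. Where 1 library is left in a group, it is assumed to vary like the others. Foxl1 positive replicate 3 alone, a setting chosen after seeing the data, gave 14 (11 higher, 3 lower) against Lgr5 positive cells and 19, all higher, against differentiated epithelium. The Rosa-mTmG libraries alone gave 0, also at an unadjusted p under 0.05. A fit with the replicate number as a block gave 0, 4, 10 and 13, with 6 members at an unadjusted p under 0.05 in the first, but deviations of same-numbered libraries correlated at only -0.0351 to 0.0433 in the comparisons with Foxl1 positive cells and at 0.242 in the other, which has just 2 pairs, so the numbers do not pair the libraries. For single called genes, 263 of the alternative values kept their call, 85 lost it in the same direction and none reversed. The cause of these shifts was not tested. An order by CPM per kilobase was not run, because the tables give no transcript length. Counts over all genes moved likewise: DESeq2 called 6747, 3698, 5845 and 9788, against 4723, 816, 2465 and 9642. Depth limits the Foxl1 libraries most: 3 counts correspond to 1.82 CPM in Foxl1 negative replicate 1 and to 0.0282 CPM in Lgr5 positive replicate 2.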
